A study of Mus musculus with 12 samples.

Results

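Amino acid synthesis and tRNA charging were followed through 33 genes in the hypertrophic zone, the layer of enlarged chondrocytes at the base of the growth plate, of Schmid and Cog mice. The members are 15 enzymes that make amino acids or handle their amino and one-carbon groups, and 18 cytosolic aminoacyl-tRNA synthetases. Every probe whose gene name in the scanner files matched a member were taken, whatever their values. This gave 60 probes for 32 of the 33 genes, out of 41174 probes and 27962 gene symbols on the array. Vars, the valyl-tRNA synthetase, had no probe under that symbol. Its 2 probes are listed under an older symbol and are described apart from the counts.

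The arrays measured RNA from zones cut by hand from the tibiae of 14 day old mice, with 1 tibia per mouse, 1 array per mouse and 3 mice in each of 4 groups. Schmid mice carry Col10a1 p.Asn617Lys, a collagen X that misfolds, as a knock-in and were homozygous. Cog mice carry ColXTgcog, a transgene that expresses a misfolding thyroglobulin under the collagen X promoter, so that it is made in hypertrophic chondrocytes. The study did not tell hemizygous from homozygous Cog mice, and its Cog arrays probably include both. The part of transgene dose in their spread was not tested. Each mutant was compared with wildtype littermates of its own background. RNA was amplified linearly in 2 rounds and labelled with Cy3. With 3 arrays in a group, precision is limited by their number.

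When misfolded protein collects in the endoplasmic reticulum, the kinase Perk phosphorylates the translation factor Eif2α. General translation falls and translation of the transcription factor Atf4 rises. Atf4 binds C/EBP-ATF response elements in its target genes, which include amino acid transporters, enzymes that make non-essential amino acids and the synthetases that load amino acids onto their tRNAs. Cartilage has a large demand for glycine and proline, since both are main residues of collagen. The members were therefore compared between Schmid and Cog as a readout of Atf4 activity, with Atf4 itself and other targets beside them.

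Signals are given on a log2 scale, on which a step of 1 is a 2-fold change. A gene was called higher or lower at an adjusted p of 0.05 or less in limma's moderated test together with a change of 2-fold or more. Genes with several probes are represented by the probe with the highest mean signal. Between 58.9% and 61.8% of spots were well above background on the Schmid arrays, 48.0% to 59.4% on those of its wildtype, 39.6% to 48.1% on the Cog arrays and 41.1% to 58.5% on those of its wildtype. The median signal of the negative control spots was 202 to 617 on the Schmid arrays, all on 1 slide, and 977 to 1199 on those of its wildtype, against 1261 to 1894 and 999 to 1885 for Cog and its wildtype. The part of this shift in the Schmid values was not tested. Of the 32 members, 28 were well above background on all 12 arrays. Rars, the arginyl-tRNA synthetase, was well above background on none, so no level is given for it. The 4 slides never paired a mutant with the wildtype of the same background, and within a comparison slide and genotype cannot be told apart.

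In Schmid, 19 of 32 members were higher and 0 were lower. Over the brightest probes of all gene symbols, 5.8% were called higher and 5.75% lower, and among symbols well above background on all 12 arrays 8.73% were higher. The median log2 fold change of the members was 1.11, a 2.16-fold rise, against -0.06 over all probes. For 23 members the lowest Schmid array exceeded the highest wildtype array, which was the case for 18.7% of all gene symbols. Synthesis enzymes (10 of 15 higher, median 1.22) and synthetases (9 of 17 higher, median 1.02) were both represented. By adjusted p alone, 22 members were higher and 1, Shmt1, was lower, where 10.3% and 14.8% of all gene symbols were. Rars is counted among these 22 and among the 23 separated members, though it was well above background on no array. The 19 called members included the whole serine route, all 3 transaminases, Cth, Asns, Shmt2 and Mthfd2 among the enzymes, and Eprs, Gars, Hars, Iars, Kars, Lars, Nars, Tars and Wars among the synthetases.

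In Cog, 7 of 32 members were higher and 0 were lower, where 1.89% of all gene symbols were called higher and 0.837% lower. The median log2 fold change was 0.42, or 1.34-fold, against -0.004 over all probes. Among the synthesis enzymes 5 were called (Phgdh, Shmt1, Gpt2, Got1 and Bcat1) with a median of 0.82 over all 15, and among the synthetases 2 (Lars and Wars) with a median of 0.25 over all 17. By adjusted p alone the counts were again 7 and 0, where 3.17% and 2.09% of all gene symbols were called. At an unadjusted p under 0.05 in limma, the single member lower in Cog was Pycr1 (adjusted p = 0.102). For 15 members the values placed every Cog array above wildtype, against 17.2% of all gene symbols, and 3.2% of the symbols well above background on all 12 arrays were called higher. The Cog count moved with the processing. It was 1 when the processed signal of the scanner was scaled to its 75th percentile and 9 with the slide as a random block, while the Schmid count under these settings was 17 and 19. The fitted correlation between arrays of a slide was -0.122. Since no slide holds a mutant with its own wildtype, the slide setting cannot adjust for slide. In fits of each mutant's own 6 arrays with the replicate number as a block, the Cog count was 0 and the Schmid count 19. Calls in both mutants were made for 6 members, in Schmid alone for 13, in Cog alone for 1 and in neither for 12.

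**Figure D1:**
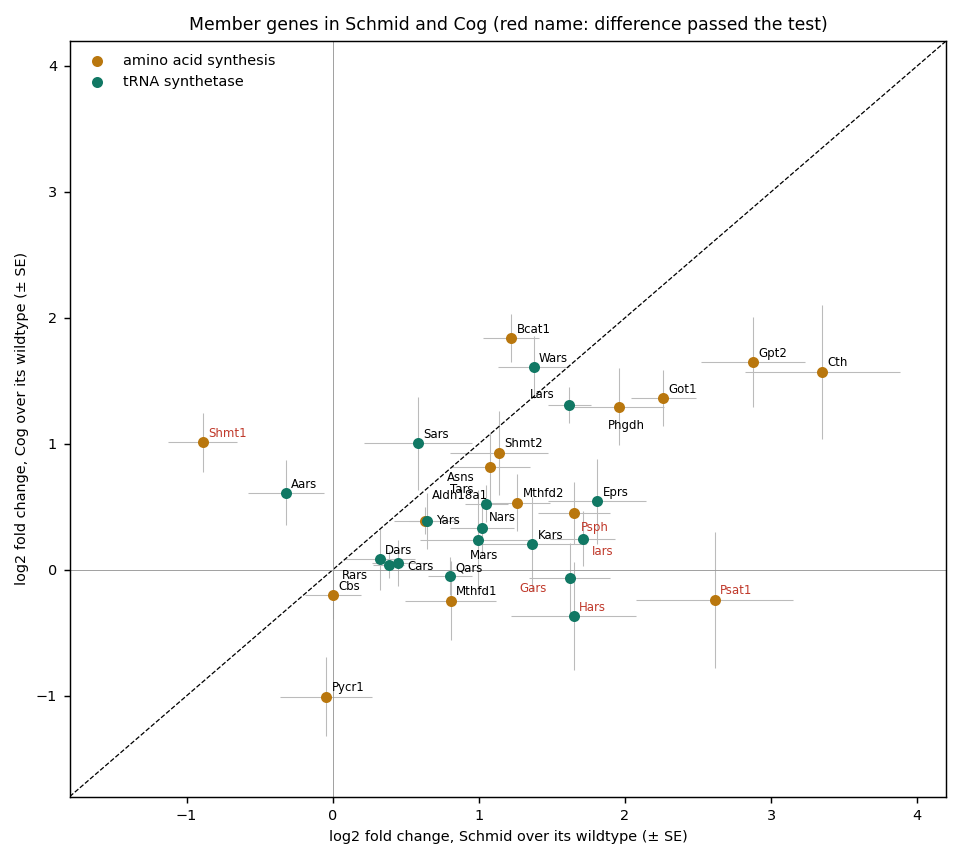
Log2 fold change of each of the 32 members in Schmid (horizontal axis) and in Cog (vertical axis), each against its own wildtype, with standard errors as grey lines. The dashed line marks equal change, and 27 of 32 members lie on the side of the larger change in Schmid. Names in red are members whose difference passed its own test.

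A simple text search was made for the core of the C/EBP-ATF response element, TGATGNAA, where N is any base, on both strands of the RefSeq window from 250 bases before to 50 bases after the gene start (GRCm38.p6). Windows were found for 25 of the 33 members. Of these, 8 (32%) held the motif, compared with 4.51% of 27025 gene symbols in the table. Upstream of the start alone the shares were 24% and 3.91%. The motif was present in 3 of 14 synthesis enzymes and 5 of 11 synthetases with a window, and in 0 of 14 mitochondrial synthetases. These are the stretches of 50 bases that hold an upstream match to the core of this element. Whether Atf4 acts through them was not tested. Each is written along its gene's own strand, with the motif or its reverse complement (TTNCATCA) in capitals.
Asns, chr6:7693210-7693259, minus strand: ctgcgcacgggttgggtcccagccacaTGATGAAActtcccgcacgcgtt
Gars, chr6:55037950-55037999, plus strand: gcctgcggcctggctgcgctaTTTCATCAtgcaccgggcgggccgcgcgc
Tars, chr15:11399659-11399708, minus strand: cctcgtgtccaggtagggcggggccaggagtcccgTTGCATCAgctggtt
Got1, chr19:43524679-43524728, minus strand: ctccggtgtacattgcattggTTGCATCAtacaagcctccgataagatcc
Pycr1, chr11:120643823-120643872, minus strand: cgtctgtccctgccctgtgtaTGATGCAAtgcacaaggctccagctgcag
Aars, chr8:111033709-111033758, plus strand: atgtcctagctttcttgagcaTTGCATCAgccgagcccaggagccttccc
Counted from the gene start, the first base of the match was at position -23 in Asns, -30 in Gars and -15 in Tars, and at -102 in Got1, -103 in Pycr1 and -112 in Aars. In Yars and Iars the match lay just after the start. Of the 8 members with the motif, 5 were called in Schmid (Asns, Gars, Iars, Tars and Got1) and 1 in Cog (Got1). Of the 17 with a window but no match, 9 were called in Schmid and 4 in Cog. A match is a description of the letters in this window and not a measured binding site.

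The serine route rose as a whole in Schmid. Phgdh, which takes 3-phosphoglycerate into the pathway, read 15.44, 15.99 and 15.75 in Schmid against 13.01, 14.28 and 14.02 in its wildtype. Psat1, the aminotransferase of the next step, read 14.71, 14.20 and 14.13 against 12.22, 11.22 and 11.76. Psph, the phosphatase that releases serine, read 14.66, 15.18 and 15.07 against 13.21, 13.61 and 13.14. In all 3 genes the Schmid and wildtype arrays were fully separated. The log2 fold changes were 1.96 ± 0.31 for Phgdh (SE; 3.89-fold, adjusted p = 0.00182), 2.61 ± 0.54 for Psat1 (6.12-fold, adjusted p = 0.00729) and 1.65 ± 0.25 for Psph (3.14-fold, adjusted p = 0.00148). Both other probes of Phgdh and the dimmer probe of Psph were also called, at 1.81, 2.18 and 1.64.

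The same 3 genes divided in Cog. Phgdh read 15.28, 15.35 and 15.15 in Cog against 14.30, 13.57 and 14.03 in its wildtype, with no overlap, a log2 fold change of 1.29 ± 0.31 (SE) and an adjusted p of 0.0415. Its other 2 probes changed by 0.63 and 0.82 and were not called, and the call was lost without any one of the Schmid or Cog arrays or of replicates 2 and 3 of the Cog wildtype (adjusted p from 0.0532 to 0.151). Psat1 read 11.88, 11.90 and 11.29 in Cog against 13.26, 11.89 and 10.64, within the spread of the wildtype (-0.24 ± 0.54, adjusted p = 0.838). Psph read 13.98, 14.52 and 14.22 against 14.29, 13.66 and 13.40, overlapping at 1 wildtype array (0.45 ± 0.25, adjusted p = 0.325).

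The transaminases, which move amino groups between amino acids and keto acids, rose in both mutants. Got1, the cytosolic aspartate transaminase, read 15.93, 15.38 and 15.42 in Schmid against 13.20, 13.27 and 13.47, and 14.96, 15.10 and 15.53 in Cog against 13.42, 14.02 and 14.07. Gpt2, the mitochondrial alanine transaminase, read 15.22, 14.95 and 14.86 in Schmid against 12.42, 12.56 and 11.42, and 14.12, 14.60 and 14.76 in Cog against 13.53, 12.28 and 12.73. Bcat1, the cytosolic branched-chain transaminase, read 14.98, 15.28 and 15.54 in Schmid against 13.88, 13.99 and 14.28, and 15.20, 14.87 and 14.88 in Cog against 13.47, 13.05 and 12.93. No mutant array overlapped its wildtype in any of the 3 genes. In Schmid the log2 fold changes were 2.26 ± 0.22 for Got1 (SE; 4.8-fold, adjusted p = 0.000225), 2.88 ± 0.36 for Gpt2 (7.34-fold, adjusted p = 0.000593) and 1.22 ± 0.19 for Bcat1 (2.33-fold, adjusted p = 0.00188). In Cog they were 1.36 ± 0.22 for Got1 (2.57-fold, adjusted p = 0.0114), 1.65 ± 0.36 for Gpt2 (3.13-fold, adjusted p = 0.0303) and 1.84 ± 0.19 for Bcat1 (3.58-fold, adjusted p = 0.00172). Got1 and Gpt2 were the 2 members that passed a test against a 2-fold change itself, in Schmid. The Cog call of Gpt2 was lost without Schmid replicate 2 or 3, Cog replicate 2 or 3 or Cog wildtype replicate 2 or 3 (log2 fold change 1.37 to 1.65, adjusted p 0.0501 to 0.112). A dimmer Bcat1 probe made to another transcript did not follow, at -0.41 in Schmid and 0.02 in Cog.

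Cth, the lyase that releases cysteine from cystathionine, had the largest change of any member in Schmid. It read 13.97, 13.57 and 13.59 in Schmid against 11.32, 10.06 and 9.70, a log2 fold change of 3.35 ± 0.53 (SE; 10.2-fold, adjusted p = 0.00197). In Cog it read 12.05, 13.41 and 13.74 against 12.35, 11.11 and 11.02. One Cog array fell within the wildtype range and the change of 1.57 ± 0.53 was not called (adjusted p = 0.123). It was called with the slide as a random block (adjusted p = 0.0492), which cannot adjust for slide here, and with array weights (adjusted p = 0.0128). Cbs, which makes cystathionine and acts just before Cth, was well above background on 11 of 12 arrays and did not pass the test in either mutant, at 0.00 in Schmid and -0.20 in Cog.

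Asns, asparagine synthetase, read 16.85, 17.11 and 17.14 in Schmid against 15.38, 16.48 and 16.0035, and 16.24, 16.59 and 16.94 in Cog against 15.51, 15.76 and 16.04. Both mutants lay above their wildtypes on every array. The log2 fold change was 1.08 ± 0.27 in Schmid (SE; 2.11-fold, adjusted p = 0.0181) and 0.82 ± 0.27 in Cog (1.76-fold, adjusted p = 0.117), and their difference of 0.26 had a 95% interval from -0.59 to 1.11. The Schmid call was lost without Schmid replicate 2 or 3 or wildtype replicate 1 (0.79 to 1.04, adjusted p 0.0328 to 0.0575).

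The one-carbon enzymes take a carbon from serine and carry it on folate. Shmt2, the mitochondrial serine hydroxymethyltransferase, read 13.81, 14.54 and 14.39 in Schmid against 12.39, 13.54 and 13.41, and 14.56, 13.83 and 13.63 in Cog against 12.98, 12.98 and 13.27. Mthfd2, a mitochondrial enzyme of the next steps, read 12.74, 12.45 and 12.70 in Schmid against 11.73, 11.11 and 11.26, and 12.07, 12.27 and 12.27 in Cog against 12.03, 11.81 and 11.17. The mutant arrays of both genes stood above their wildtypes throughout. In Schmid, Shmt2 rose by 1.14 ± 0.33 on the log2 scale (SE; adjusted p = 0.0336) and Mthfd2 by 1.26 ± 0.22 (adjusted p = 0.00351). In Cog the values were 0.93 ± 0.33 (adjusted p = 0.145) and 0.53 ± 0.22 (adjusted p = 0.206). The Schmid call of Shmt2 was lost without Schmid replicate 2 or 3 or wildtype replicate 1 (0.78 to 1.07, adjusted p 0.0687 to 0.103). Mthfd1, the cytosolic enzyme of 3 activities, changed by 0.81 in Schmid and -0.25 in Cog and was not called.

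Shmt1, the cytosolic counterpart of Shmt2, was the one member whose 2 effects had opposite signs and both passed an adjusted p of 0.05. It read 10.14, 9.73 and 10.61 in Schmid against 10.68, 11.28 and 11.19, with all Schmid arrays below wildtype (-0.89 ± 0.24, SE; adjusted p = 0.0221, less than 2-fold). In Cog it read 11.20, 10.99 and 11.21 against 9.85, 10.14 and 10.36, with all Cog arrays above (1.01 ± 0.24, 2.02-fold, adjusted p = 0.0386). The 2 wildtype groups themselves stood apart, at 11.05 ± 0.32 and 10.12 ± 0.25 (SD, n = 3), a difference of 0.93 with an adjusted p of 0.1 in limma. The Schmid and Cog means were 10.16 ± 0.44 and 11.13 ± 0.12. The rise in Cog was lost in 7 of the 12 fits without 1 array (Schmid replicate 1 and every Cog and Cog wildtype array; 0.88 to 1.13, adjusted p 0.0575 to 0.118). The dimmer Shmt1 probe was below that limit throughout.

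The proline enzymes were not called in either mutant. Aldh18a1, which starts proline synthesis from glutamate, changed little but evenly, with all mutant arrays above wildtype in both comparisons (0.63 ± 0.11 in Schmid, SE, adjusted p = 0.00275; 0.39 ± 0.11 in Cog, adjusted p = 0.0684). With the processed signal of the scanner it was called higher in Schmid, at 1.09 with 75th percentile scaling (adjusted p = 0.0246) and 1.08 with quantile normalization (adjusted p = 0.00036). Pycr1, which completes proline, read 14.12, 13.47 and 13.25 in Schmid against 13.07, 13.62 and 14.30, fully overlapping. In Cog it read 13.34, 13.07 and 12.70 against 13.84, 14.23 and 14.06, with all Cog arrays below (-1.01 ± 0.32, adjusted p = 0.102), and with array weights it was called lower (adjusted p = 0.0239).

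**Figure D2:**
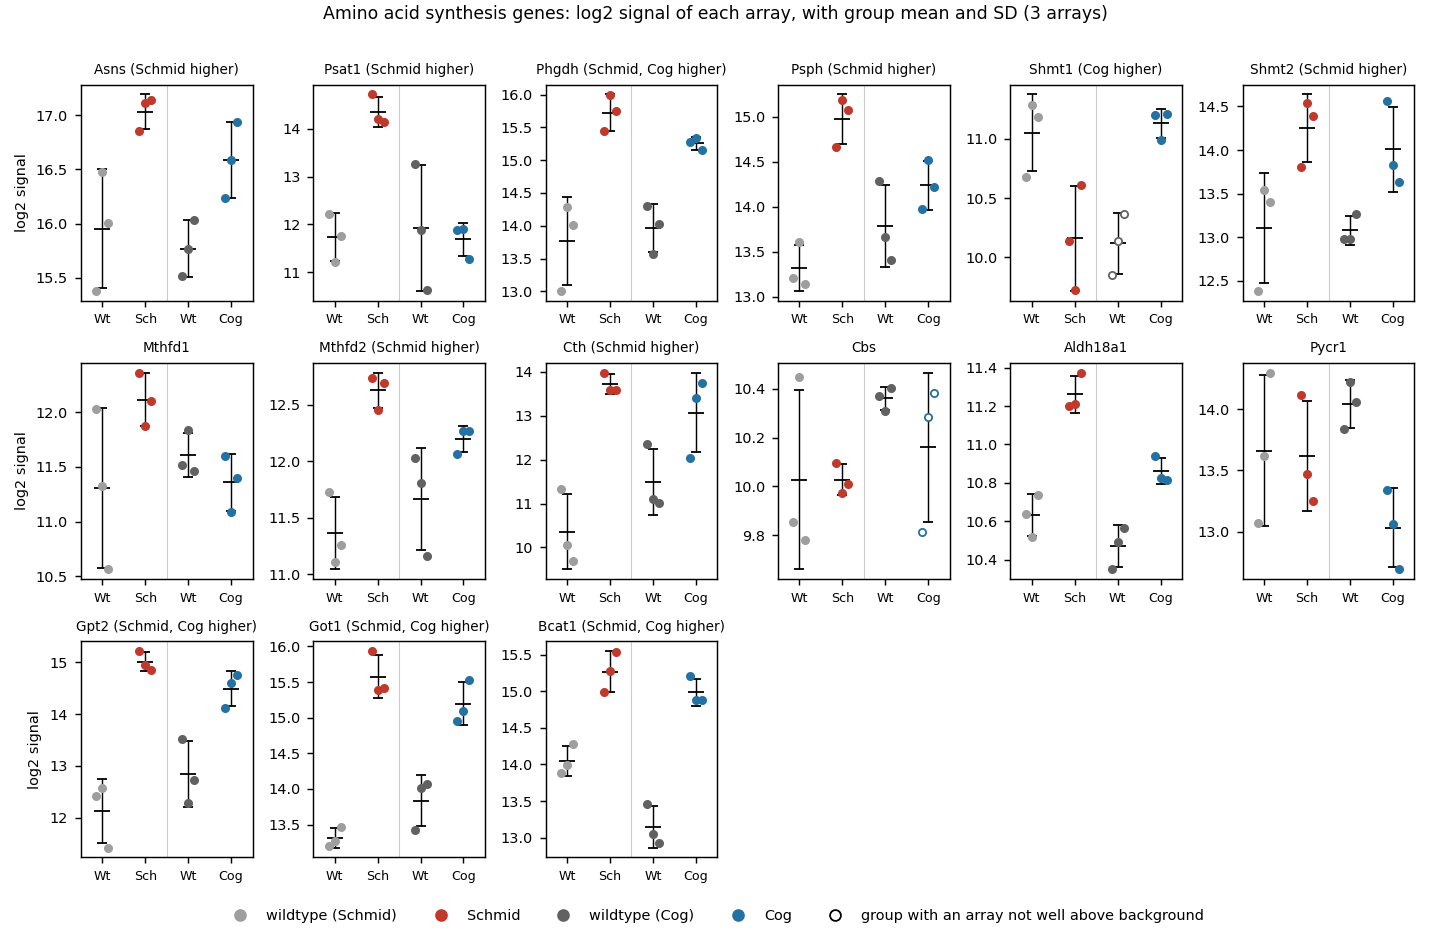
Log2 signal of the 15 amino acid synthesis enzymes on each of the 12 arrays, 1 panel per gene, with the group mean and SD (n = 3). Titles name the mutant in which the gene was called higher. Got1, Gpt2 and Bcat1 stand above wildtype in both mutants, and Psat1 in Schmid.

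Among the synthetases, Lars and Wars rose in both mutants. Lars, the leucyl-tRNA synthetase, read 17.58, 17.35 and 17.44 in Schmid against 15.86, 15.88 and 15.78, and 17.03, 16.91 and 17.04 in Cog against 16.01, 15.42 and 15.63. Wars, the tryptophanyl-tRNA synthetase, read 14.02, 14.21 and 13.99 in Schmid against 12.27, 13.17 and 12.65, and 14.56, 14.40 and 14.27 in Cog against 12.38, 12.81 and 13.21. Neither gene overlapped its wildtype in either mutant. For Lars the log2 fold change was 1.62 ± 0.14 in Schmid (SE; 3.07-fold, adjusted p = 0.000146) and 1.31 ± 0.14 in Cog (2.48-fold, adjusted p = 0.00226). For Wars it was 1.37 ± 0.25 in Schmid (2.59-fold, adjusted p = 0.00356) and 1.61 ± 0.25 in Cog (3.05-fold, adjusted p = 0.00852). A middle Lars probe was called in Schmid (1.72) and missed the limit in Cog (0.79, adjusted p = 0.0526). The dimmest Lars probe (0.81 and 0.90) and the dimmer Wars probe (0.19 and 0.20) were not called in either mutant. With its probes averaged, Wars fell under 2-fold in both, at 0.78 in Schmid and 0.91 in Cog.

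Gars, Hars and Iars, which charge the tRNAs for glycine, histidine and isoleucine, rose in Schmid and did not pass the test in Cog. Gars read 12.55, 11.72 and 11.85 in Schmid against 10.56, 10.40 and 10.30, and 10.74, 11.43 and 10.58 in Cog against 11.24, 11.11 and 10.59. Hars read 14.72, 14.34 and 14.40 in Schmid against 13.55, 11.91 and 13.05, and 12.99, 14.21 and 12.82 in Cog against 13.92, 13.50 and 13.70. Iars read 14.76, 14.35 and 14.49 in Schmid against 13.05, 12.88 and 12.55, and 12.79, 13.28 and 13.64 in Cog against 12.87, 13.20 and 12.89. The Schmid arrays were clear of wildtype in all 3 genes and the Cog arrays overlapped it in all 3. The log2 fold changes in Schmid were 1.62 ± 0.28 for Gars (SE; 3.08-fold, adjusted p = 0.00283), 1.65 ± 0.43 for Hars (3.14-fold, adjusted p = 0.0207) and 1.71 ± 0.22 for Iars (3.27-fold, adjusted p = 0.000705). In Cog they were -0.06, -0.37 and 0.25, with adjusted p from 0.562 to 0.919. Hars lost its Schmid call without Schmid replicate 1 or 3 or wildtype replicate 2 (1.18 to 1.69, adjusted p 0.0513 to 0.0716). The other 2 Iars probes and the other Hars probe were dim and were not called.

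Eprs, Kars, Nars and Tars also rose in Schmid. Eprs, which charges both glutamate and proline tRNAs, read 15.58, 14.78 and 15.06 against 14.10, 12.96 and 12.93 (1.81 ± 0.33, SE, 3.51-fold, adjusted p = 0.00421). Among its other probes, a bright one was called too (1.58, adjusted p = 0.00681). The dim ones were not, at 0.27 (adjusted p = 0.103) and at 0.71 (adjusted p = 0.0458, under 2-fold). Kars, for lysine, read 14.32, 13.13 and 13.26 against 12.86, 11.88 and 11.88 (1.36 ± 0.37, 2.57-fold, adjusted p = 0.0249). Schmid replicate 1 was the highest array for both genes and wildtype replicate 1 the highest of its group. Nars, for asparagine, read 13.64, 13.65 and 13.63 against 12.27, 12.59 and 13.00 (1.02 ± 0.22, 2.03-fold, adjusted p = 0.00927), and Tars, for threonine, read 17.31, 17.28 and 17.31 against 16.43, 16.17 and 16.15 (1.05 ± 0.15, 2.07-fold, adjusted p = 0.00103). All 4 were separated from wildtype in Schmid. Kars lost its call without Schmid replicate 1 or wildtype replicate 2 or 3 (0.99 to 1.20, adjusted p 0.0817 to 0.0931), and Nars and Tars fell just under 2-fold without wildtype replicate 1 and 3 respectively (0.85 and 0.9998).

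In Cog none of those 4 was called. Eprs read 14.06, 14.34 and 14.05 against 14.05, 13.54 and 13.23 (0.54 ± 0.33, SE, adjusted p = 0.386), and Kars read 12.47, 12.57 and 13.20 against 12.90, 12.47 and 12.25 (0.20 ± 0.37, adjusted p = 0.796). Nars read 13.61, 13.79 and 13.41 against 13.66, 13.29 and 12.86 (0.33 ± 0.22, adjusted p = 0.426). Tars read 16.82, 16.94 and 16.89 against 16.69, 16.13 and 16.25, with every Cog array above wildtype (0.52 ± 0.15, adjusted p = 0.0721), while the other 3 genes overlapped.

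**Figure D3:**
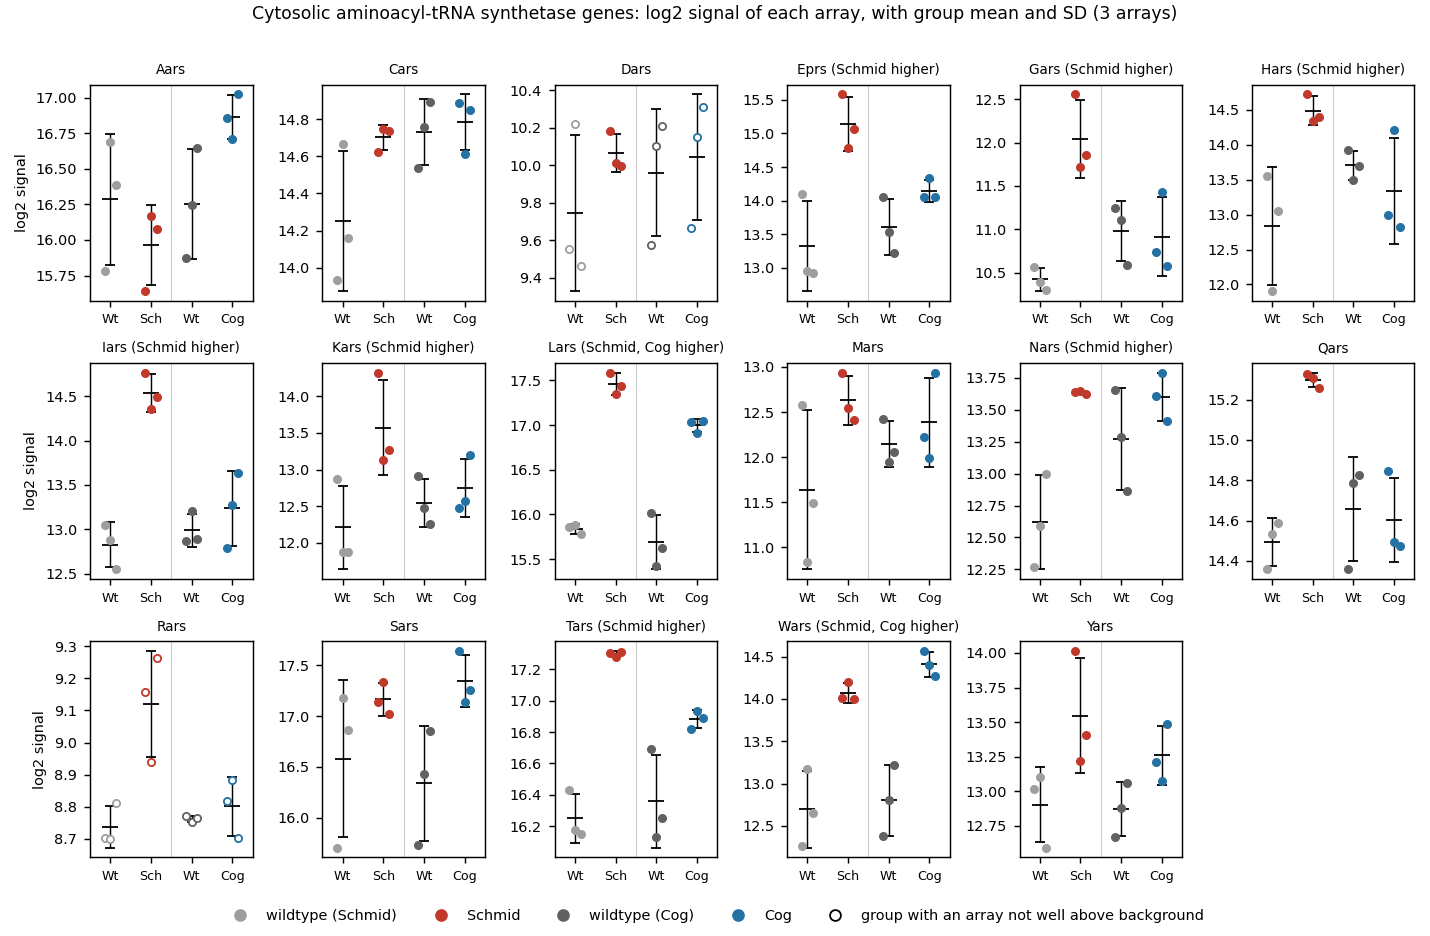
Log2 signal of the 17 cytosolic synthetase members on each of the 12 arrays, 1 panel per gene, with the group mean and SD (n = 3). Open points mark groups with an array not well above background. Lars and Wars stand above wildtype in both mutants, and Gars, Hars and Iars in Schmid.

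The other 8 synthetases were not called at their brightest probe. Aars, for alanine, and Sars, for serine, were among the brightest members and changed by -0.32 and 0.58 in Schmid and by 0.61 and 1.01 in Cog, where all Cog arrays of both genes lay above wildtype (adjusted p = 0.207 and 0.151). Qars, for glutamine, was 0.80 ± 0.15 in Schmid (SE; adjusted p = 0.00464) and stayed under 2-fold. Its dimmer probe rose by 1.35 (adjusted p = 0.0147). Cars, Mars and Yars, for cysteine, methionine and tyrosine, changed by 0.45, 0.99 and 0.64 in Schmid and by 0.05, 0.24 and 0.39 in Cog. Yars was called in Schmid with the scanner's processed signal, at 1.30 with 75th percentile scaling and 1.24 with quantile normalization. Mars was called in Schmid with normexp and the 75th percentile (1.13), with array weights (1.10) and without wildtype replicate 1 (1.46). Of the 2 Vars probes listed under the older symbol Vars2, the brighter changed by -0.34 in Schmid (adjusted p = 0.357) and by 0.49 in Cog (adjusted p = 0.308). The dimmer had the opposite signs, at 0.58 in Schmid (adjusted p = 0.071), with all Schmid arrays above wildtype, and -0.25 in Cog (adjusted p = 0.53).

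Probes of the same gene also disagreed for Aars and Dars. Of the 5 Aars probes, 1 dim probe made to a separate cDNA was well above background on all 3 Schmid arrays and on none of its wildtype. The Schmid level was at least 3.27-fold above wildtype, taking the wildtype at the lowest signal well above background. Without that limit limma gave a log2 fold change of 2.29 (adjusted p = 0.0181). In Cog this probe was well above background on 2 arrays and on none of its wildtype, with a change of 1.97 (adjusted p = 0.084). Its difference between the mutants was 0.32 (adjusted p = 0.817). Another probe to the same cDNA was well above background on no array. The brightest Dars probe, for aspartate, was itself dim, with a mean signal of 9.95. It changed by 0.32 in Schmid and was not called, while 2 probes with means of 9.79 and 9.15 were called. The first rose by 1.67 (adjusted p = 0.0193), with 1 wildtype array well above background. The second rose by 1.90 (adjusted p = 0.00412), or at least 2.02-fold with the wildtype at the same limit. The dimmer probe of Tars was called too (1.66, adjusted p = 0.00215). These dim probes are the ones for which the higher share of detected spots on the Schmid arrays stands beside the result, and its part in them was not tested. With all probes of a gene averaged, 16 members were called in Schmid and 2 in Cog.

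The difference between the mutants was tested directly as the Schmid change minus the Cog change. The signed log2 change was larger in Schmid for 5 members and larger in Cog for 1, where 4.38% and 7.02% of all gene symbols were called in these directions. Psat1 differed by 2.85 ± 0.76 (SE; adjusted p = 0.0303), Hars by 2.02 ± 0.61 (adjusted p = 0.0466), Gars by 1.69 ± 0.39 (adjusted p = 0.0168), Iars by 1.46 ± 0.31 (adjusted p = 0.0116) and Psph by 1.20 ± 0.35 (adjusted p = 0.0418). Shmt1 differed by -1.90 ± 0.33 (adjusted p = 0.00485). The median difference over the members was 0.68, against -0.05 over all gene symbols. Qars differed at less than 2-fold (0.85 ± 0.21, adjusted p = 0.023). Most members called in Schmid alone therefore were not shown to differ from Cog, among them Cth (1.78, 95% interval 0.11 to 3.45, adjusted p = 0.132) and Eprs (1.27, interval 0.22 to 2.32, adjusted p = 0.0932). Of the 6 members called in both mutants, Gpt2 and Got1 had larger values in Schmid (1.23 and 0.90, adjusted p = 0.121 and 0.077) and Bcat1 in Cog (-0.62, adjusted p = 0.143).

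The differences of Gars, Iars and Shmt1 were called in all 12 fits without 1 array. That of Psat1 was lost in 7 of them (without any Schmid array, Schmid wildtype replicate 2 or 3, Cog replicate 3 or Cog wildtype replicate 2; 2.60 to 2.96, adjusted p 0.0531 to 0.0738). Psph was lost in 8 (without Schmid replicate 2 or 3, Schmid wildtype replicate 1 or 3, Cog replicate 1 or 3 or Cog wildtype replicate 1 or 2; 0.94 to 1.26, adjusted p 0.0594 to 0.0910) and Hars in 10, all but Schmid wildtype replicate 1 and Cog replicate 2 (1.55 to 2.12, adjusted p 0.0673 to 0.0997). With the replicate number as a block, Psph (adjusted p = 0.0538) and Hars (adjusted p = 0.0683) were lost and Eprs was gained (adjusted p = 0.0467). The dimmer probes of Psph (1.01, adjusted p = 0.0698), Hars (0.72), Iars (0.56 and -0.11) and Shmt1 (-0.11) did not pass the difference test. Iars also lost its difference with its probes averaged and with the processed signal at the 75th percentile. Dimmer probes of Dars (2.08, adjusted p = 0.041) and Tars (1.37, adjusted p = 0.0349) did pass it.

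**Figure D4:**
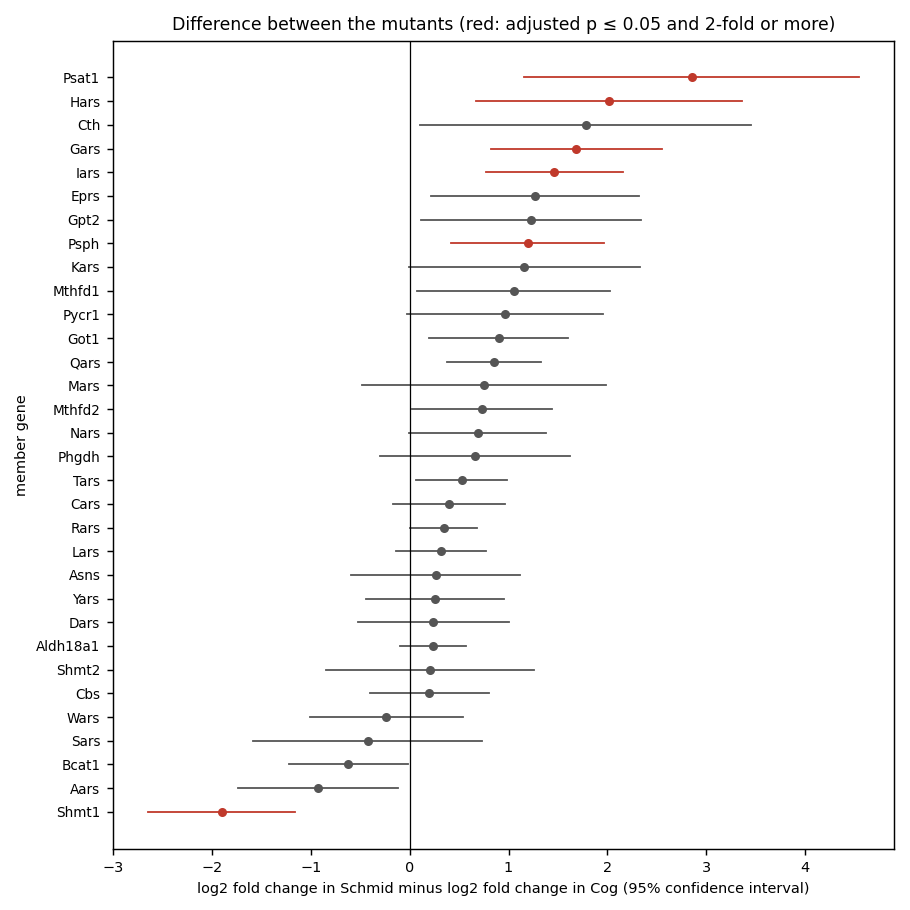
Difference between the log2 fold changes in Schmid and in Cog for each of the 32 members, with 95% confidence intervals. Positive values mean a larger change in Schmid, red marks the 6 members that passed the test, and Shmt1 is the one called on the side of Cog.

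The wildtype groups were compared in the same way. Limma called 0 of the 32 members between them, where 0.554% of all gene symbols were called in either direction. Some members had an unadjusted p of 0.05 or less in limma, a limit at which no share over all gene symbols was taken. Those were Bcat1 (0.90, adjusted p = 0.0621), Shmt1 (0.93), Nars (-0.65), Cars (-0.48) and Got1 (-0.52), written as the Schmid background minus the Cog background. Bcat1 was called with array weights (adjusted p = 0.016) and Shmt1 without Schmid wildtype replicate 1 (adjusted p = 0.0379). By sign alone, 23 members were lower and 9 higher in the Schmid wildtype, with a median of -0.21 against -0.0005 over all gene symbols. Among the members whose difference between the mutants was called, the wildtypes differed by -0.87 for Hars, -0.56 for Gars and -0.46 for Psph. For Psat1, Iars and Shmt1 they differed by -0.19, -0.16 and 0.93. These values enter the difference between the mutants directly, and their part in it was not tested.

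On single arrays, the median member stood 1.05 to 1.33 above the wildtype mean for the synthesis enzymes on the 3 Schmid arrays and 0.47 to 0.75 above it on the 3 Cog arrays. For the synthetases these ranges were 0.92 to 1.11 and 0.19 to 0.53. The wildtype arrays of the Schmid background ranged from -0.11 to 0.05 for the enzymes and from -0.09 to 0.04 for the synthetases, and those of the Cog background from -0.04 to 0.02 and from -0.01 to 0.01. Each wildtype array is set against the mean of its own group, so the narrow wildtype ranges follow in part from the measure. For single members, the median SD between arrays was 0.395 in the Schmid wildtype and 0.297 in the Cog wildtype.

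Other genes of the same pathways, taken from lists of named genes, were read in the same fits. Of 15 mitochondrial tRNA synthetases, which charge tRNAs inside the organelle, 4 were higher and 1 lower in Schmid (median 0.60). Nars2 rose at least 2.62-fold and Yars2 by 1.78 ± 0.35 on the log2 scale (SE; adjusted p = 0.00567), and Sars2 was lower at -1.14 ± 0.20 (adjusted p = 0.00354). In Cog 1 was higher, Vars2 at 1.27 ± 0.23 (adjusted p = 0.0156), and the median was 0.03. Of 6 other cytosolic charging proteins, such as the phenylalanine synthetase subunits and the scaffold proteins of the multisynthetase complex, 1 was higher in Schmid (Tarsl2, 1.66 ± 0.35, adjusted p = 0.00792) and 0 in Cog, where limma gave 0 at an unadjusted p of 0.05.

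Of 20 further amino acid and one-carbon enzymes, 3 were higher and 3 lower in Schmid and 0 were called in Cog. Aldh1l2 (2.46 ± 0.34, SE, adjusted p = 0.00104) and Mthfd1l (2.09 ± 0.28, adjusted p = 0.000826), both mitochondrial enzymes of folate one-carbon metabolism, and Ass1 (1.25 ± 0.19, adjusted p = 0.00143), which joins citrulline to aspartate, rose. Gldc, of the glycine cleavage system (-2.10 ± 0.32, adjusted p = 0.00161), Glul, glutamine synthetase (-1.91 ± 0.45, adjusted p = 0.0131), and Aldh1l1, the cytosolic counterpart of Aldh1l2 (-1.65 ± 0.35, adjusted p = 0.00778), were lower.

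Atf4 mRNA itself did not pass the test, at -0.19 ± 0.27 in Schmid (SE; adjusted p = 0.634) and -0.15 ± 0.27 in Cog (adjusted p = 0.799). Of 21 genes made up of Atf4 and other known targets, 14 were higher and 1 lower in Schmid and 9 were higher in Cog, with medians of 1.37 and 1.17. Ddit3, which encodes Chop, rose by 4.49 ± 0.23 in Schmid (adjusted p = 8.75e-06) and by 3.66 ± 0.23 in Cog (adjusted p = 8.54e-05). Trib3, a pseudokinase, rose by 2.97 ± 0.15 and 2.48 ± 0.15. Slc38a2, an amino acid transporter, was lower in Schmid (-1.55 ± 0.34, adjusted p = 0.00965). The test of the difference called 2 of these 21 genes, both larger in Schmid. Beside these medians, those of the synthesis members were 1.22 in Schmid and 0.82 in Cog, and those of the synthetases 1.02 and 0.25.

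**Figure D5:**
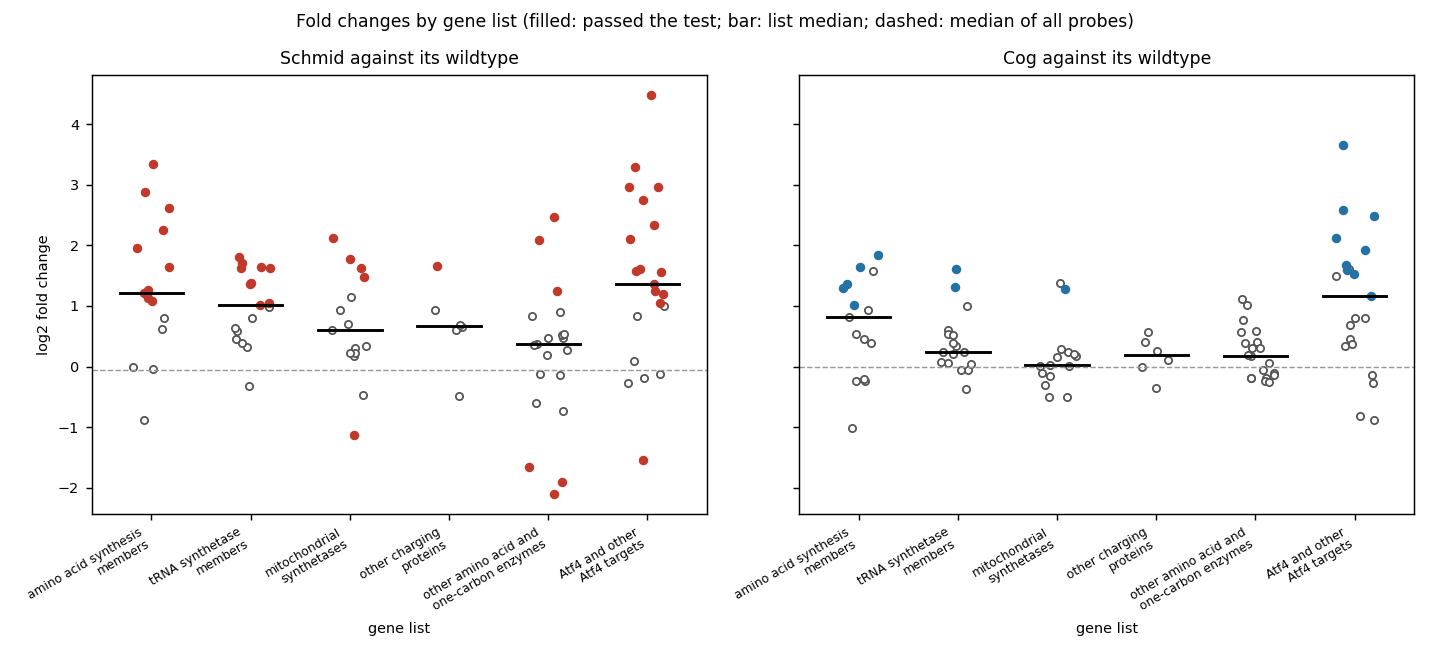
Log2 fold changes in Schmid (left) and Cog (right) for the 2 groups of members and the 4 comparison lists, 1 point per gene at its brightest probe, filled where the gene passed the test. Bars are list medians, and the dashed line is the median of all probes. The median of the synthesis members is 1.22 in Schmid and 0.82 in Cog, that of the synthetases 1.02 and 0.25, and that of Atf4 and its other targets 1.37 and 1.17.

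The identity of the tissue was checked with marker genes. In dissected tissue, fewer cells of a type and less RNA per cell cannot be told apart. Col10a1, Col2a1, Acan and Sox9 were well above background on every array. Of 7 chondrocyte markers, Ihh and Alpl were lower in Schmid and Ihh in Cog. The summed signal of the 7 was 857000 to 938000 in Schmid and 1200000 to 1430000 in its wildtype. It was 1180000 to 1380000 in Cog and 1200000 to 1340000 in its wildtype. The paper lists Col2a1 and Acan as general cartilage markers, so this sum is not specific to hypertrophic cells. Of 6 endothelial markers, Cdh5, Kdr and Emcn were lower in Schmid and 0 in Cog, with sums of 5740 to 8230, 19100 to 32000, 11700 to 20200 and 24100 to 30600 in the same order, and Pecam1 did not reach the background limit on any array. Of 5 red cell markers, 3 were lower in Schmid and 0 in Cog, with sums of 23100 to 64200, 247000 to 961000, 93400 to 249000 and 145000 to 302000. Of 5 osteoblast markers, Col1a1 was lower in Schmid and Dmp1 in Cog, with sums of 156000 to 308000, 384000 to 870000, 323000 to 516000 and 458000 to 829000. Of 4 macrophage markers, Csf1r was lower in Schmid and 0 in Cog, with sums of 5730 to 7010, 9150 to 17000, 5760 to 12900 and 8880 to 20500. Of 6 neutrophil markers, 0 were called in either mutant, with sums of 4510 to 15100, 5650 to 154000, 11500 to 46200 and 6460 to 7520, so that all Cog arrays lay above their wildtype. Of 5 osteoclast markers, 0 were called, with sums of 9990 to 12600, 13200 to 31800, 9530 to 23700 and 14100 to 32600, and all Schmid arrays lay below their wildtype. The part of these shifts in the members' changes was not tested.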

How the data were processed

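The authors deposited the scanner output of 12 single-colour 44K whole mouse genome arrays (Agilent Feature Extraction 9.5.3), with 1 intensity per spot, and a matrix of log2 values made with normexp (offset 50) and quantile normalization in limma. The same steps were repeated here from the deposited intensities: normexp with offset 50, control spots and outlier flags left out, quantile normalization over 12 arrays and averaging of the spots of a probe. The result matched the deposited log2 matrix with a lowest correlation of 0.99987 per array, and 41174 probes were tested. Intensities are relative brightness, so levels of single genes were compared within a probe only. The marker sums add the signals of different probes, so the brightest probes weigh most in them.

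One fit of 4 group means was made in limma 3.58.1 (R 4.3.3) with 8 residual degrees of freedom, and p-values were adjusted over all probes by Benjamini and Hochberg's method. They rest on 1 spread per probe, pooled over the 4 groups of 3 mice, so the Cog values draw on the Schmid arrays too. Slide and genotype cannot be told apart within a comparison. Fits of each mutant's own 6 arrays without a block gave 17 members higher in Schmid and 5 in Cog. Replicate numbers are given no meaning in the labels. After group means were removed, same-numbered arrays correlated over 12805 bright probes by 0.306, 0.283 and 0.117 for Schmid and its wildtype. For Cog and its wildtype the values were -0.209, 0.153 and -0.201. Over all probes the Schmid values were 0.193, 0.171 and 0.0659, and same-numbered arrays of the 2 wildtype groups, which come from different backgrounds, correlated over bright probes by 0.505, 0.115 and 0.274. What a number marks is therefore unknown. The fit without a block was kept, with the block as an alternative.

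The members and lists were chosen with earlier results of these data known. Per-array values are given for members called in either mutant or in their difference. From the other lists, up to 3 called genes each way per mutant are named, plus Atf4, Ddit3 and Trib3. Symbols were checked against RefSeq accessions, and 3 list probes under symbols that now belong to another gene were left out. The fit was tested on simulated data. Alternatives were other background corrections and scalings, the deposited matrix, array weights, row and GC trends, the slide or replicate number as a block, a filter on dim probes, all probes of a gene averaged, each mutant's own arrays and leaving out each array in turn.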

Additional observations from a re-analysis of the deposited data

Results flagged for a closer look

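The responses of 6 members differed between Schmid and Cog by the test of the difference itself. Psat1 (2.85), Hars (2.02), Gars (1.69), Iars (1.46) and Psph (1.20) had the larger log2 change in Schmid. Shmt1 (-1.90) had changes of opposite sign, at -0.89 in Schmid and 1.01 in Cog. Its wildtype groups differed by 0.93. With 3 arrays in a group, no search for single outlying arrays was made.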

How the results depend on the processing

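Over 27 alternative settings, 852 values of called members were recomputed, of which 697 kept their call, 155 lost it and 0 changed sign. The Schmid count of 19 stayed between 16 and 19 except in a test against a 2-fold change, which called 2 members in Schmid, 0 in Cog and 0 in either direction of the difference. The Cog count of 7 was 1 after 75th percentile scaling of the processed signal, 4 with the processed signal quantile normalized, 4 with normexp and the 75th percentile, 4 with row trends removed, 4 with row and GC trends removed and 2 with all probes averaged. The 5 members with the larger change in Schmid became 2 and 3 with the processed signal (75th percentile and quantile), 9 with normexp and the 75th percentile, 9 with the slide as a random block and 3 with all probes averaged. One member was lower in Schmid with normexp and the 75th percentile (Shmt1), 1 lower in Cog with array weights (Pycr1), and 1 differed between the wildtypes with array weights (Bcat1). The causes were not tested.

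With the replicate number as a block, the counts were 19 in Schmid, 6 in Cog, 4 raised more in Schmid and 1 raised more in Cog. In fits of each mutant's own 6 arrays with that block, they were 19 in Schmid and 0 in Cog, so every Cog call was lost. What the number marks is unknown. Besides Phgdh in Cog, Psph, Hars and Eprs in the difference, the block over 12 arrays changed no call.

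Leaving out 1 array at a time gave 16 to 19 members higher in Schmid, 0 to 1 lower, 4 to 7 higher in Cog, 0 lower, 2 to 7 raised more in Schmid, 1 to 2 raised more in Cog and 0 to 1 between the wildtypes. Without Cog replicate 2 or 3 or Cog wildtype replicate 2 or 3 the Cog count was 4. Of the called members, 13 of 19 in Schmid, 4 of 7 in Cog and 3 of 6 in the difference kept their call in all 12 such fits. Over the settings other than the test against a 2-fold change, medians of the synthesis members ranged from 1.08 to 1.38 in Schmid and 0.51 to 0.95 in Cog. Those of the synthetases ranged from 0.78 to 1.22 and 0.10 to 0.42. Of 104 recomputed medians, 83 stayed within the pooled SD of the array medians, 21 moved beyond it and 0 changed sign.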
